A study of Mus musculus with 4 samples.

Results

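Back skin of the mouse line labelled Ovol1 null was compared with back skin of the control line after imiquimod, using 1 droplet single-cell RNA library of each. Barcodes were kept from 200 detected genes upward when mitochondrial transcripts took no more than 10% of their counts, which left 5671 cells labelled Ovol1 null and 5670 control cells, together 11341 of the 22819 kept cells of the series. Each kept cell was then placed in a compartment. Epithelial cells had more unique molecular identifiers (UMIs, counted transcripts) of the keratins Krt5, Krt14, Krt1 and Krt10 than of the matrix genes Col1a1, Col1a2, Col3a1 and Dcn. Fibroblasts had the reverse, and both compartments required no UMI of Ptprc, which encodes the leukocyte surface protein CD45. Cells with a Ptprc UMI formed the third compartment, called Ptprc cells here. The mice of all groups were of the strain CD1, an outbred stock, and 7 to 8 weeks old. Both imiquimod groups had received a single dose of 62.5 mg of a 5% imiquimod cream on the shaved back, and both untreated groups, 1 control and 1 labelled Ovol1 null, carry no dose in their labels. The labels do not describe the null allele, the control genotype, the sorting gate or the number of mice behind a library. The libraries held polyadenylated RNA of cells sorted by flow cytometry.

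OVOL1 is a zinc-finger transcription factor of the epidermis and hair follicle that mostly represses its targets and helps keratinocytes stop dividing and differentiate. Imiquimod activates Toll-like receptor signalling in innate immune cells, and on mouse skin it gives a psoriasis-like reaction. In that reaction lymphocytes release interleukin 17, keratinocytes make alarmins and activation keratins, and stromal cells release chemokines and acute-phase proteins. The series addresses the part of Ovol1 in this inflammation and in the thickening of the epidermis.

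Each group had 1 library, so no difference between the groups was tested, and no p-value is given. For each gene, UMIs were summed over the cells of a compartment and expressed per 1000000 UMIs of those cells (CPM). Ratios carry a 95% exact binomial interval that covers counting error only, and not the spread between mice. "Higher" and "lower" below describe these 2 libraries. A gene was counted when its ratio reached 2-fold, among genes with at least 50 UMIs over both imiquimod libraries. The 9 genes that define the compartments and the mitochondrial genes were left out.

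The imiquimod libraries differed in depth. The library labelled Ovol1 null held 56973042 UMIs with a median of 8451 per cell, and the control library held 30495767 with a median of 4805. The shallowest kept cells held 3039 and 1413 UMIs, and 21.9% of the control cells lay below 3039. The libraries shared 36 barcodes, 0.635% of either. The rule called 51.4% of the control cells epithelial (95% exact interval 50.1 to 52.7) and 32.7% of the cells labelled null (31.5 to 34.0), with medians of 5485 and 12620 UMIs per cell. Fibroblasts made up 45.6% and 61.6%, with medians of 4366 and 7852.5 UMIs. Ptprc cells were 125 (2.20%) and 225 (3.97%). With every cell thinned to 1000 UMIs, the Ptprc share of kept cells was 0.829% and 0.987%. Sorting and capture can also set these shares, and their part was not tested. In sums over a compartment, fewer cells of a kind and less RNA per cell cannot be told apart. All 12 epithelial markers were detected in epithelial cells, where they summed to 49547 CPM in the control library and 63435 CPM in the library labelled null. The 10 fibroblast markers summed to 44896 and 42449 CPM in fibroblasts. Both marker lists include the genes that define the compartment, so their detection and part of these sums follow from the rule. Krt14 alone measured 6376 CPM in control and 15556.5 CPM in labelled null epithelial cells. Dcn alone measured 22890 and 19320 CPM in fibroblasts.

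Ovol1 transcripts were not lower in the library labelled Ovol1 null. In epithelial cells Ovol1 (chromosome 19, 5549136 to 5560646, minus strand, GRCm38) measured 26.5 CPM in untreated control skin, 35.4 CPM in imiquimod control skin, 38.7 CPM in untreated skin labelled null and 90.1 CPM in imiquimod skin labelled null. Both libraries labelled null were above the control library of the same treatment. The imiquimod ratio was 2.55-fold (2.33 to 2.78). Ovol1 UMIs were found in 11.7% of control epithelial cells and 37.0% of epithelial cells labelled null, and in 2.54% and 6.35% after thinning to 1000 UMIs. Among fibroblasts, which should lack the gene, 1.39% and 2.52% held an Ovol1 UMI. Its relative Ovol2 measured 18.2, 11.9, 22.8 and 9.14 CPM in epithelial cells in the same order. The libraries count the 3′ ends of transcripts, and a 3′ tag outside a deleted part checks nothing about the allele. The label is therefore used below as a label only.

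**Figure D1:**
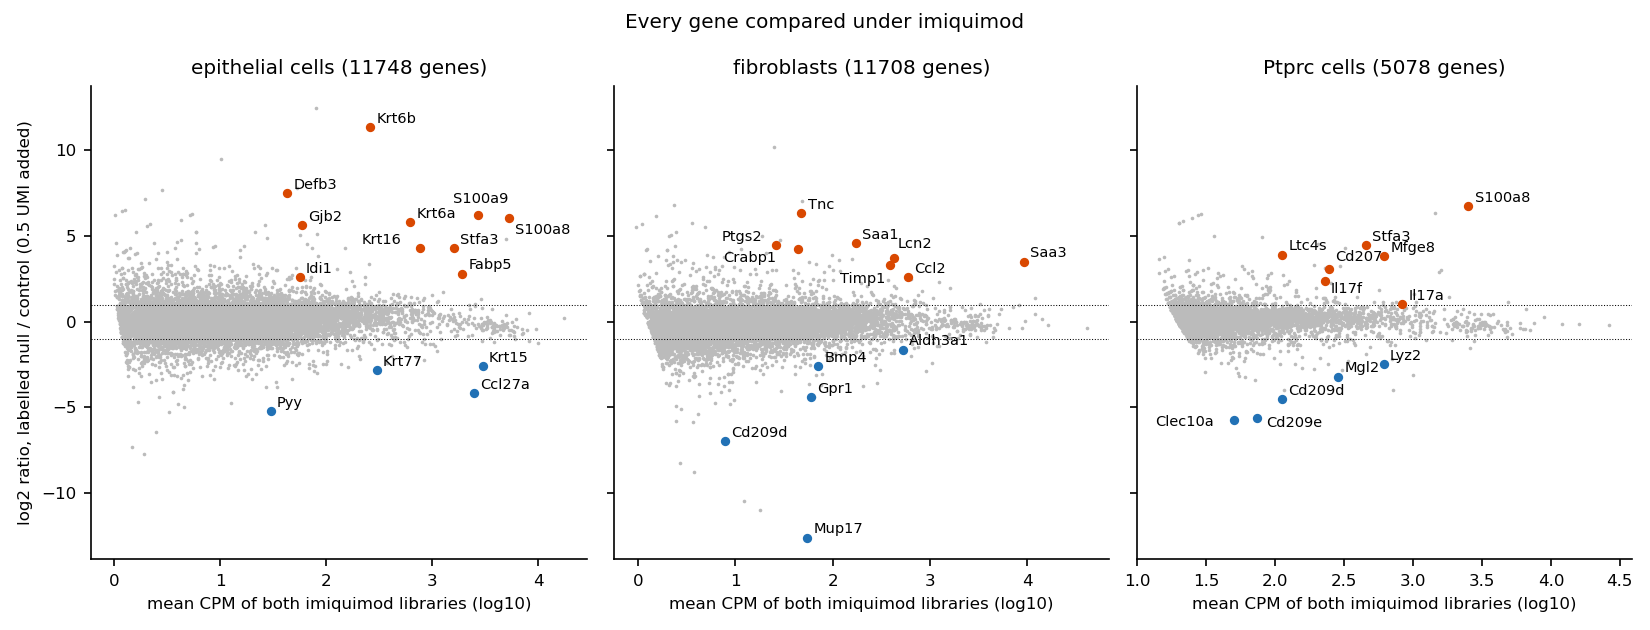
Log2 ratio of the library labelled Ovol1 null over the control library under imiquimod (vertical axis, 0.5 UMI added to each side) against the log10 mean CPM of both libraries (horizontal axis), 1 point per gene compared, in each compartment. Dotted lines mark 2-fold; a selection of named genes is coloured by direction, with S100a8, Krt6b, Saa3 and Tnc far above the upper line and Ccl27a, Mup17 and Cd209d far below the lower line.

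In epithelial cells the library labelled null had much higher levels of alarmins, activation keratins, protease inhibitors of the stefin A family and small proline-rich envelope proteins, and of genes of the cell cycle and of cholesterol synthesis. It had lower levels of the skin-homing chemokine Ccl27a, of the basal keratin Krt15, of the suprabasal keratin Krt77 and of the transcription factors Gata3 and Trp63. Of 11748 genes compared, 1229 (10.5%) were at least 2-fold higher and 1080 (9.19%) at least 2-fold lower in the library labelled null. The median log2 ratio of all genes was 0.03. In the untreated pair the shares were 1.3% and 0.702%. The imiquimod shares of 10.5% and 9.19% are the background for the epithelial list counts below.

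Activation keratins, made by keratinocytes in wounds and psoriasis, were higher in 3 of 4 cases, with a median log2 ratio of 5.05 against 0.03 for all genes. Krt6a (chromosome 15, 101689910 to 101694307, minus strand) measured 6.21 CPM in untreated control, 21.8 in imiquimod control, 7.87 in untreated labelled null and 1222 CPM in imiquimod labelled null epithelial cells. The single library labelled null under imiquimod stood apart from the other 3, with a ratio of 56.1 to the imiquimod control (50.8 to 62.2). Its neighbour Krt6b measured 0.167 CPM, on 3 UMIs, in imiquimod control and 519 CPM in imiquimod labelled null cells, a ratio of 3102 whose interval runs from 1061 to 15046. Reads of these near-identical copies may have been split between them, so the values of each are uncertain. Krt16, their partner keratin, measured 74 and 1446 CPM under imiquimod (19.5-fold, 18.5 to 20.6) and 8.18 and 7.75 CPM in untreated skin. Krt17 was 1.96-fold higher (1.93 to 1.99) and did not reach the count. With at least 5 times as many UMIs of the epithelial rule genes as of the fibroblast ones required, its log2 ratio was 1.75 in place of 0.97, which is past 2-fold.

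Alarmins and antimicrobial proteins were higher in 8 of 12 cases and lower in 2 (median log2 2.63). S100a8 encodes a subunit of calprotectin, the calcium-binding alarmin that rises in inflamed epidermis and in neutrophils. S100a8 (chromosome 3, 90668978 to 90670035, plus strand) measured 4.04 CPM in untreated control, 154 in imiquimod control, 1.25 in untreated labelled null and 10361 CPM in imiquimod labelled null cells. Imiquimod libraries were above untreated ones in both lines, and the library labelled null was 67.2-fold above the control (64.7 to 69.7). S100a9, the other calprotectin subunit, measured 0.376, 71.4, 1.01 and 5291 CPM in that order (74.1-fold, 70.1 to 78.4). An S100a8 UMI was found in 8.65% of control and 87.4% of labelled null epithelial cells, and in 3.12% and 64.6% after thinning. In the same library 64.8% of fibroblasts and 66.7% of Ptprc cells held an S100a8 UMI (14.5% and 28.4% after thinning), against 3.02% and 6.4% in the control, so a UMI alone does not mark an epithelial cell that makes it. In epithelial cells the summed S100a8 and S100a9 level per cell had a median of 0 CPM and a 90th percentile of 112 CPM in the control. In the library labelled null its 10th percentile was 118 CPM, its median 4464 CPM and its 90th percentile 34133 CPM. Of 7 neutrophil markers, S100a8 and S100a9 among them, 6 had UMIs in each library. The 5 without the alarmins summed to 1.28 CPM in control and 9.85 CPM in labelled null epithelial cells, with Retnlg at 0 in the first and Ly6g at 0 in the second. Defb3, a beta-defensin, measured 0.447 and 84.9 CPM (190-fold, 96.4 to 441), while Defb1, the constitutive beta-defensin, was 4.96-fold lower (4.55 to 5.42).

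**Figure D2:**
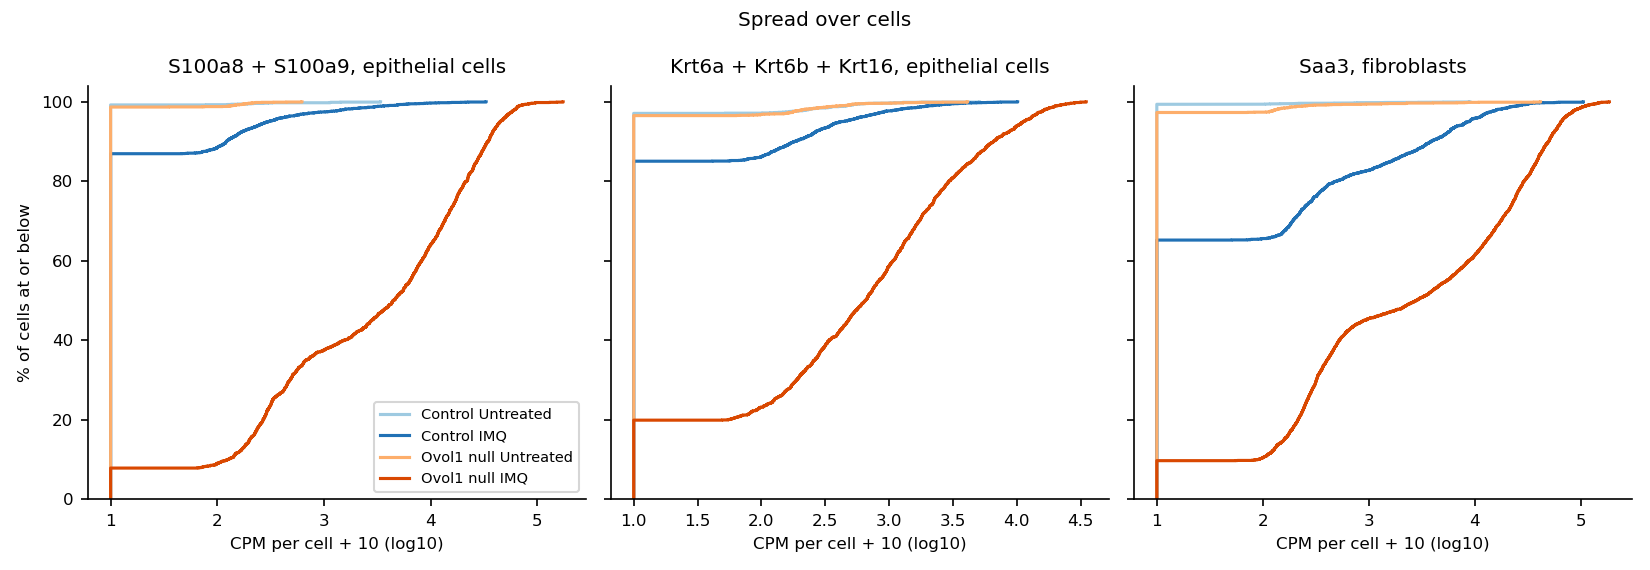
Cumulative share of cells (vertical axis, percent) at or below a level (horizontal axis, log10 of CPM per cell plus 10) for S100a8 plus S100a9 and for Krt6a plus Krt6b plus Krt16 in epithelial cells and for Saa3 in fibroblasts, 1 line per library. The flat left end of each line is the share of cells without a UMI; the line of imiquimod skin labelled Ovol1 null lies to the right of the other 3 in each panel, with median levels of 4464, 644 and 2796 CPM against 0 in the imiquimod control.

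Stefin A and SerpinB genes encode inhibitors of cysteine and serine proteases, and 11 of 14 were higher, none lower (median log2 4.29, or 3.95 with genes at 0 set to their bound). Stfa3 measured 59.2, 153, 112 and 3044 CPM in untreated control, imiquimod control, untreated labelled null and imiquimod labelled null cells. Under imiquimod it was 19.8-fold higher (19.1 to 20.6) in the library labelled null. BC100530 of the same cluster on chromosome 16 measured 344 and 9592 CPM (27.9-fold, 27.2 to 28.6). Serpinb3a, an inhibitor raised in psoriatic scale, measured 1.79 and 53.6 CPM (30-fold, 21.2 to 44.1). Stfa2 had no UMI in the imiquimod control and was at least 33.7-fold higher, against a floor of 3 UMIs per library. The stefin copies are alike in sequence, so their separate values are uncertain.

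Cornified envelope genes were higher in 14 of 21 cases and lower in 2 (median log2 1.82). Those higher were 10 small proline-rich (Sprr) genes, whose products are cross-linked into the envelope, together with Crct1, Ivl, Cnfn and the cross-linking enzyme Tgm1. Sprr2h measured 3.24 and 110 CPM under imiquimod (34-fold, 26.2 to 44.9), and Sprr2e measured 0.112 CPM on 2 UMIs and 10.8 CPM (96.3-fold, 26.4 to 799). The late cornified envelope genes Lce1a1 and Lce1m went the other way. Lce1a1 was 0.47, 3.85, 0.298 and 0 CPM over the 4 libraries and at least 34.1-fold lower under imiquimod. Lce1m was 2.96 CPM in the control and 0 in the library labelled null, at least 26.2-fold lower. The Sprr2 copies are near-identical in places and Sprr2a1 overlaps Sprr2a2, so they were not told apart with certainty.

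Keratins and early genes of the spinous layer were mixed, with 1 of 13 higher and 4 lower (median log2 0.23). Fabp5, a fatty-acid carrier raised in psoriatic epidermis, measured 490, 481, 436 and 3364 CPM (6.99-fold, 6.84 to 7.15). Krt77, a spinous-layer keratin, measured 612, 526, 598 and 75.5 CPM (6.96-fold lower, 6.63 to 7.31), Mt4, a metallothionein of differentiating keratinocytes, was 5.23-fold lower and Krt80 5.1-fold lower. For Fabp5 and Krt77 the 3 other libraries lay close together. Barrier lipid genes were higher in 7 of 24 cases and lower in 1 (median log2 0.51). Alox12b, a lipoxygenase of the lipid barrier, measured 0.614 and 5.68 CPM (9.25-fold, 5.02 to 18.9), and Elovl6, which lengthens fatty acids, was 2.82-fold higher. Aloxe3, which acts after Alox12b, was 2.67-fold lower (1.93 to 3.73).

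Of the junction genes 3 of 27 were higher and 2 lower (median log2 −0.08), near the shares over all epithelial genes of 10.5% and 9.19%. Gjb2 encodes connexin 26, a gap-junction protein that is scarce in resting epidermis. Gjb2 measured 2.82, 2.34, 0.536 and 116 CPM (49.7-fold, 36.7 to 69.1), so that only imiquimod skin labelled null was high. Gjb6 was 9.8-fold higher, Gja1 was 4.32-fold higher and the claudin Cldn10 was 3.52-fold lower. Basement membrane adhesion genes were lower in 4 of 16 cases and higher in 1 (median log2 −0.08). Krt15, a keratin of basal and bulge cells, measured 6913, 5115, 5682 and 840 CPM (6.09-fold lower, 6 to 6.18). Dst, which ties keratin to hemidesmosomes, measured 344 and 76.1 CPM (4.52-fold lower), and the anchoring collagen Col7a1 was 2.49-fold lower. Cd44, a hyaluronan receptor, was 2.19-fold higher.

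The cell-cycle lists stood higher in epithelial cells, with 17 of 21 S phase genes (median log2 1.56) and 17 of 24 G2 and M phase genes (median log2 1.29) past 2-fold, and none lower. Mcm5, part of the replicative helicase, measured 10.4, 7.54, 8.7 and 39.4 CPM (5.23-fold, 4.37 to 6.31). Ccne1, which starts S phase, measured 0.949 and 7.14 CPM (7.53-fold, 4.58 to 13.2). The mitotic kinase Plk1 measured 4.42, 1.79, 4.77 and 8.04 CPM (4.5-fold, 3.1 to 6.75), and Cdc20, which triggers anaphase, was 3.76-fold higher. For Plk1 the imiquimod control was also the lowest library, below both untreated ones. These higher values lay in cells with more Krt5 and Krt14 than Krt1 and Krt10 UMIs, which were 72.5% of control and 81.9% of labelled null epithelial cells. There Mcm5 was 4.39-fold higher (3.66 to 5.31). In the 802 and 337 cells with more Krt1 and Krt10 UMIs, Mcm5 was on 5 and 10 UMIs with a ratio of 2.35 (0.732 to 8.76), and the list medians were 0.03 for S phase and 0.36 for G2 and M phase. In fibroblasts the S phase list had 0 of 18 higher and 2 lower (median log2 0.02) and the G2 and M phase list 2 of 14 higher (−0.13). Over all fibroblast genes 4.72% were higher and 10.6% lower. In Ptprc cells 0 of 9 S phase genes passed (0.06), and 2 of 10 G2 and M phase genes were lower (−0.35). The all-gene shares there were 7.62% higher and 4.19% lower.

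Cholesterol synthesis genes were higher in 14 of 18 cases in epithelial cells (median log2 1.57) and in 14 of 18 in fibroblasts (1.47), with none lower. Idi1, an isomerase early in the pathway, measured 34.5, 15.8, 26.2 and 96.4 CPM in epithelial cells (6.1-fold, 5.4 to 6.93). The imiquimod control was the lowest of the 4 libraries. Sqle, squalene epoxidase, measured 13.4, 12.9, 10.4 and 72.9 CPM in epithelial cells (5.63-fold, 4.91 to 6.48) and was 5.34-fold higher in fibroblasts (3.7 to 7.96).

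The regulators list, which holds Ovol, Zeb, Myc and Id genes and other epithelial transcription factors, was higher in 4 of 32 cases and lower in 3 (median log2 −0.22), near the shares over all epithelial genes of 10.5% and 9.19%. Bcl3, a partner of NF-κB, measured 7.14 and 27.6 CPM (3.87-fold, 3.2 to 4.7) and Grhl3, a factor of barrier formation and wound closure, 8.48 and 23.9 CPM (2.82-fold). Ovol1 and Zeb1 were the other two higher. Gata3 measured 331, 267, 328 and 84.1 CPM (3.18-fold lower, 3.02 to 3.34), and Mycl was 3.29-fold lower. Trp63, the master factor of stratified epithelium, lies outside the naming rule and was chosen after its values were seen. It measured 451, 482, 423 and 192 CPM (2.51-fold lower, 2.42 to 2.6).

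EGF-family growth factors and their partners were higher in 3 of 13 cases (median log2 0.62), with Areg 4.78-fold (3.83 to 6.04) and Tgfa 3.27-fold higher. Nrf2 and oxidative stress targets were higher in 8 of 18 cases and lower in 1 (0.78). Slc7a11, the cystine importer, measured 0.781 and 17.2 CPM (22-fold, 13 to 40.5). Among 24 genes of hypoxia and glycolysis 8 were higher (0.56), with Ero1l 2.99-fold and Ldha 2.58-fold higher. Aryl hydrocarbon receptor targets gave 1 of 6 higher and 2 lower (−0.49). In that list the receptor gene Ahr itself was 2.69-fold lower (2.43 to 2.98). Immediate early and dissociation genes, which can respond to tissue handling, gave 2 of 24 higher and 2 lower (−0.07), near the same all-gene shares (10.5% and 9.19%), with Hsph1 2.65-fold higher and Btg1 2.48-fold lower. Hair follicle and sebaceous genes gave 5 of 15 higher and 3 lower (−0.03), with Fa2h 4.09-fold higher and Krt24 10.6-fold lower (5.92 to 20.7). Under the stricter epithelial rule the log2 ratio of Fa2h was 4.12 in place of 2.03, and that of Krt24 −2.77 in place of −3.36. Sebocyte markers, 6 of 6 detected, summed to 186 CPM in control and 385 CPM in labelled null epithelial cells, and their part was not tested.

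**Figure D3:**
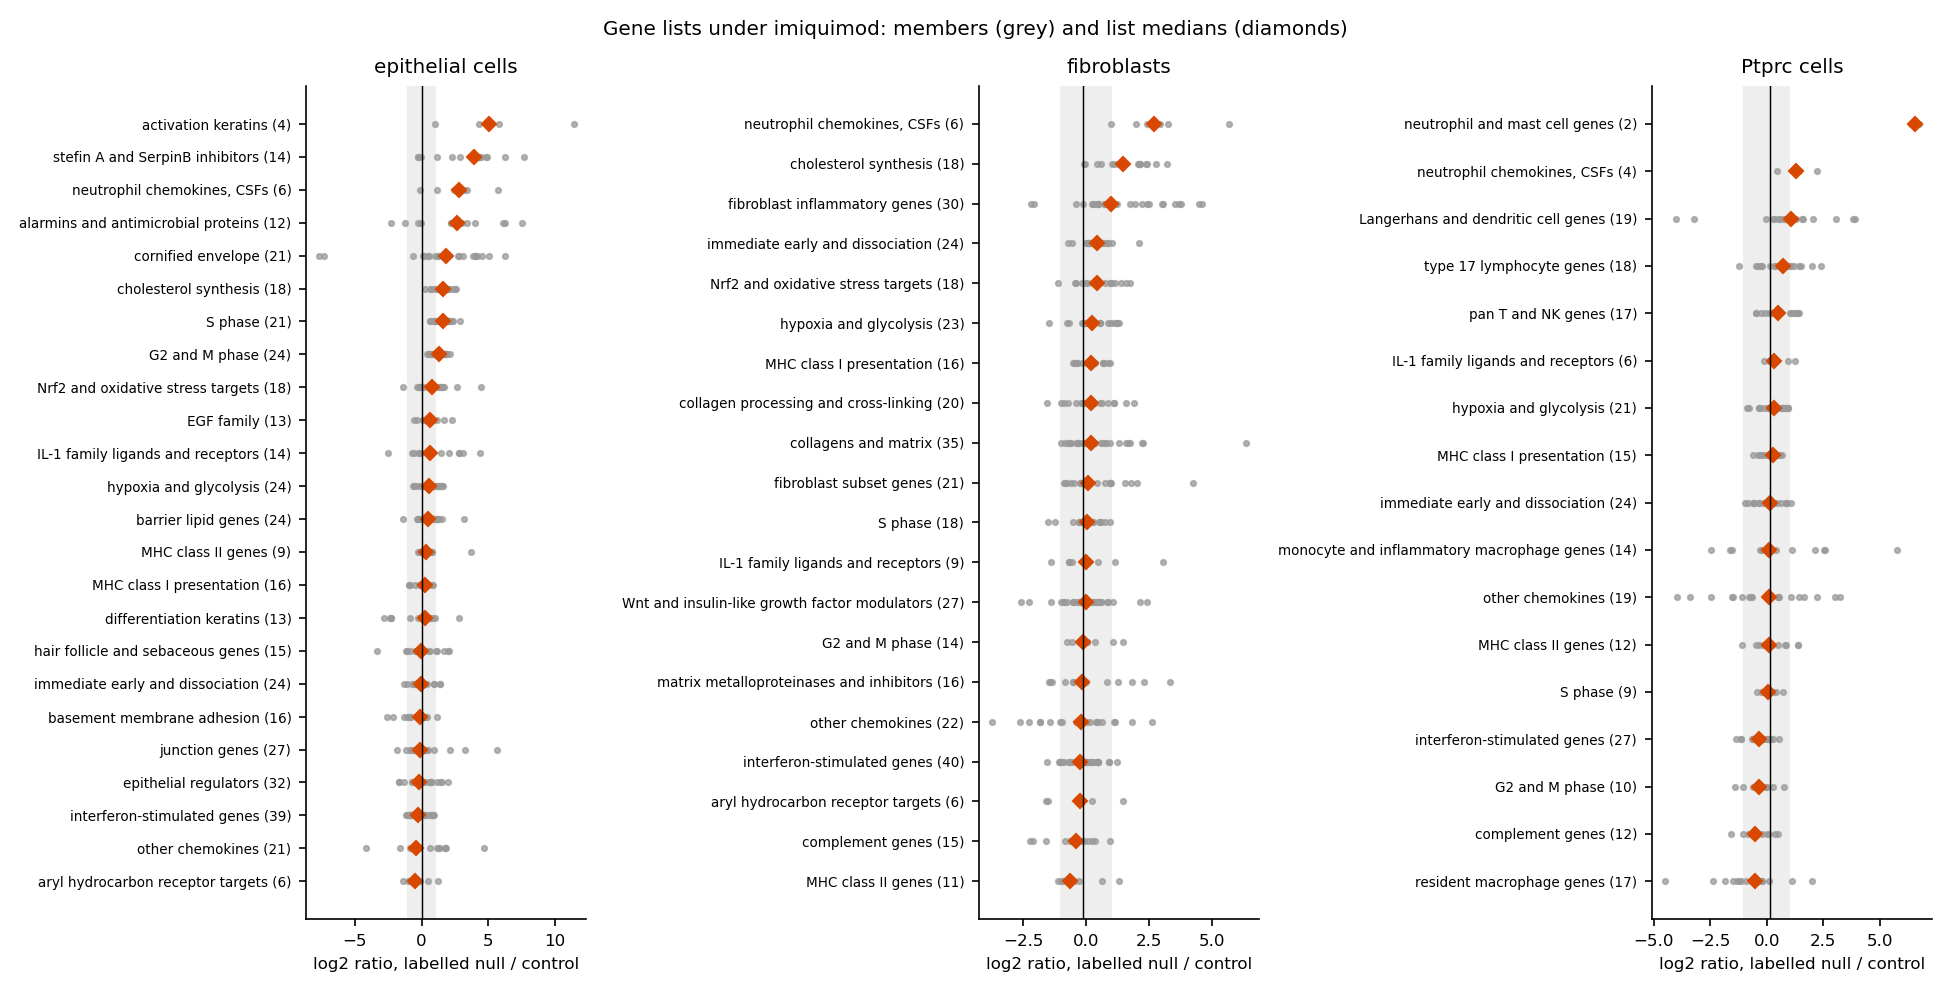
Log2 ratio of the library labelled Ovol1 null over the control library under imiquimod (horizontal axis) for each member (grey points) of each gene list but the haemoglobin one (rows, number of members compared in brackets) in the 3 compartments; diamonds are list medians with genes at 0 set to their bound. The grey band is under 2-fold and the vertical line is the median of all genes. The activation keratins at 5.05 and the stefin A and SerpinB genes at 3.95 head the epithelial panel.

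Among interleukin 1 family genes 6 of 14 were higher and 1 lower in epithelial cells (median log2 0.60). Il1f6, which encodes the interleukin 36 alpha of psoriatic epidermis, measured 0.0941, 0.781, 0.0596 and 16.3 CPM (20.9-fold, 12.3 to 38.5). The decoy receptor Il1r2 measured 73.1, 168, 81.5 and 30.1 CPM and was 5.59-fold lower (5.17 to 6.05). In fibroblasts 2 of 9 were higher and 1 lower (−0.03), and in Ptprc cells 1 of 6 was higher (0.34). The shares over all genes were 4.72% higher and 10.6% lower in fibroblasts, and 7.62% and 4.19% in Ptprc cells. Neutrophil-attracting chemokines and colony-stimulating factors were higher in 5 of 6 cases in epithelial cells (2.78), 5 of 6 in fibroblasts (2.68) and 3 of 4 in Ptprc cells (1.30). Cxcl1, a ligand of the neutrophil receptor CXCR2, measured 3.76, 19.9, 3.93 and 106 CPM in epithelial cells (5.35-fold, 4.79 to 5.99). In fibroblasts Cxcl1 measured 40.4, 27.8, 31.4 and 213 CPM (7.66-fold, 6.85 to 8.59). The cytokine Il6 measured 88.4, 25.4, 57 and 137 CPM in fibroblasts (5.39-fold, 4.79 to 6.08).

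Ccl27a encodes CCL27, a keratinocyte chemokine that draws memory T cells to skin through CCR10. Ccl27a (chromosome 4, 41769467 to 41774247, minus strand) measured 2308, 4725, 3343 and 264 CPM in epithelial cells over the 4 libraries. It was highest in imiquimod control skin and lowest in imiquimod skin labelled null, 17.9-fold lower (17.5 to 18.4). A Ccl27a UMI was found in 96% of control and 57.6% of labelled null epithelial cells, and in 86.2% and 18.9% after thinning. Ccl27b, a second copy on the same chromosome, was 13.8-fold lower (11.4 to 16.7), and reads may be split between the copies. The symbols Ccl27a and Ccl21a each occur more than once among the counted genes. The CPM values and ratios given for them belong to a single entry of each. Other chemokines, Ccl27a among them, were higher in 7 of 21 cases and lower in 2 (median log2 −0.40). Ccl22, which attracts CCR4-bearing T cells, measured 0.279 and 7.63 CPM (27.3-fold, 11.5 to 85.1). Under the stricter epithelial rule its log2 ratio was 2.103 in place of 4.639.

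Pyy and Tmod4 also stood at the top of the downward ranking in epithelial cells. Pyy, the gene of the peptide hormone PYY, measured 21, 58.4, 23 and 1.54 CPM (37.9-fold lower, 27.7 to 53.1). Tmod4, an actin-filament cap of striated muscle, measured 20, 24.3, 15.3 and 0.902 CPM (26.9-fold lower). Cyp2f2, a cytochrome P450, was 11.4-fold lower (9.57 to 13.7) and Krt32, a hair keratin, was 14.3-fold lower. Padi4, which converts arginine to citrulline in proteins, measured 4.61, 4.91, 0 and 0.0376 CPM, so both libraries labelled null held 1 UMI at most while the controls held 49 and 88. At the top of the upward ranking Klk6, a kallikrein protease, measured 1 and 52.4 CPM (52.2-fold, 32.9 to 88.3).

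Haemoglobin transcripts were also high in the upward ranking. Hbb-bs measured 8.65 CPM in untreated control, 0 in imiquimod control, 248 in untreated labelled null and 162 CPM in imiquimod labelled null epithelial cells. Both libraries labelled null were above both controls, by at least 965-fold under imiquimod. A Hbb-bs UMI was in 0 of 2913 control cells, which allows up to 0.127% at 95% exact confidence, and in 2.21% of cells labelled null. The 5 erythrocyte markers summed to 5.08 and 347 CPM in epithelial cells and 0.850 and 154 CPM in fibroblasts, with Hbb-bs and Hbb-bt at 0 in both control values. With called doublets left out, the log2 ratio in epithelial cells was 5.75 in place of 12.50 for Hbb-bs, and −1.30 in place of 5.12 for Hba-a1. The copies of each globin share sequence. Xist measured 1634 and 809 CPM in imiquimod epithelial cells, and the Y-linked genes Ddx3y, Eif2s3y, Kdm5d and Uty had at most 2 UMIs in any compartment of any library. In the list of haemoglobin and sex-linked genes, 4 of 6 were higher and 2 lower in epithelial cells (median log2 4.29), 4 of 6 higher and 1 lower in fibroblasts (5.33, or 4.04 with bounds), and the only gene compared in Ptprc cells, Xist, had −0.58.

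Fibroblasts of the library labelled null had higher levels of acute-phase proteins, neutrophil and monocyte chemokines, prostaglandin synthase Ptgs2, tenascin C and the metalloproteinase inhibitor Timp1. They had lower levels of the ligand Bmp4, of Igfbp3 and of lysyl oxidase, and no UMI of the major urinary protein genes Mup17, Mup16 and Mup9. Of 11708 genes compared, 553 (4.72%) were at least 2-fold higher and 1237 (10.6%) at least 2-fold lower, with a median log2 ratio of −0.15 over all genes. This split depended on scaling. The edgeR scaling by trimmed means moved every log2 ratio up by 0.22 and gave 878 higher and 837 lower genes, so that 51.2% of the counted genes were higher, in place of 30.9%. Setting the median gene to no difference gave 773 and 937. List medians between −0.22 and 0 in fibroblasts lay above 0 under the edgeR scaling. In untreated skin 2.58% were higher and 0.946% lower. The imiquimod shares of 4.72% and 10.6% are the background for the fibroblast list counts below.

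The fibroblast inflammatory list was higher in 15 of 30 cases and lower in 2 (median log2 0.997). Saa3 encodes a serum amyloid A protein made outside the liver. Saa3 (chromosome 7, 46711998 to 46715700, minus strand) measured 10.4, 1504, 76.9 and 17084 CPM in fibroblasts over the 4 libraries. Imiquimod libraries were above untreated ones, and each library labelled null was above its control, by 11.4-fold under imiquimod (11.2 to 11.5). A Saa3 UMI was found in 34.8% and 90.3% of imiquimod fibroblasts, and in 20.8% and 65.1% after thinning. Epithelial cells held one in 21.6% and 87.8%, and in 4.05% and 19.7% after thinning, so a UMI alone does not mark a fibroblast that makes it. The level per cell in fibroblasts had a median of 0 and a 90th percentile of 3839 CPM in the control. In the library labelled null the median was 2796 CPM and the 90th percentile 49658 CPM. Saa1, its neighbour, measured 13.6 and 332 CPM (24.4-fold, 20.9 to 28.7), and Lcn2, an iron-sequestering antimicrobial protein, measured 8.3, 60.9, 7.08 and 790 CPM (13-fold, 12 to 14). Ptgs2, which encodes the inducible cyclooxygenase, measured 4.17, 2.21, 6.18 and 49.6 CPM (22.4-fold, 15.2 to 34.5). Il33, an alarmin cytokine, was 8.32-fold higher (6.5 to 10.8). Ptx3, a soluble pattern-recognition protein, measured 6.7, 0.765, 3.16 and 10.9 CPM (14.2-fold, 7.4 to 31.4).

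Among other chemokines 4 of 22 were higher and 7 lower in fibroblasts (median log2 −0.20). Ccl2, the monocyte attractant, measured 170, 169, 126 and 1026 CPM (6.06-fold, 5.79 to 6.34). Its 3 other libraries lay close together. Ccl27a was 13.5-fold lower (12.6 to 14.6), with the 12 epithelial markers at a summed 4921 CPM in control and 1982 CPM in labelled null fibroblasts. Ccl17, also on the list of Langerhans and dendritic cell genes, was 6.31-fold lower. The 6 Langerhans markers summed to 1098 and 655 CPM in fibroblasts. The 8 dendritic markers summed to 363 and 185 CPM, with Clec9a at 0 in the library labelled null. T or NK markers, 7 of 7 detected, summed to 233 and 656 CPM in fibroblasts, and the 6 mural cell markers to 241 and 425 CPM. The part of these transcripts in the fibroblast ratios was not tested. S100a8 was 12.9-fold higher and Krt6a was 16.5-fold higher in fibroblasts labelled null, beside 67.2-fold and 56.1-fold in epithelial cells.

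Collagens and other matrix genes were higher in 7 of 35 cases and lower in 1 (median log2 0.18). Tnc encodes tenascin C, a matrix protein of wounds. Tnc (chromosome 4, 63959785 to 64047015, minus strand) measured 2.69, 1.11, 3.37 and 94.5 CPM (85.5-fold, 49.9 to 161), and only imiquimod skin labelled null was high. Thbs1 was 4.81-fold higher, and Has1, a hyaluronan synthase, measured 82.2, 14.3, 73.6 and 67.2 CPM (4.71-fold, 4.02 to 5.54). For Has1 it was the imiquimod control that stood below the other 3 libraries. The same library was lowest for Serpinh1, the collagen chaperone, at 2632, 375, 1813 and 1126 CPM (3-fold, 2.91 to 3.1). In its list of collagen processing and cross-linking genes, 4 of 20 were higher and 2 lower (0.20), and Lox, lysyl oxidase, was 2.95-fold lower (2.77 to 3.15). Metalloproteinases and their inhibitors gave 4 of 16 higher and 3 lower (−0.16). Timp1 measured 31.6, 70.6, 34.3 and 712 CPM (10.1-fold, 9.41 to 10.8), and Mmp3, stromelysin, 1054, 426, 1059 and 2087 CPM (4.9-fold, 4.76 to 5.04).

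Wnt and insulin-like growth factor modulators gave 3 of 27 higher and 4 lower (median log2 −0.03), beside 4.72% and 10.6% of all fibroblast genes. Bmp4, a bone morphogenetic protein ligand, measured 101, 122, 86.1 and 20.3 CPM (5.99-fold lower, 5.43 to 6.61). Igfbp3, which binds insulin-like growth factors, measured 179, 153, 176 and 32 CPM (4.79-fold lower, 4.42 to 5.19). In both, the imiquimod library labelled null stood below the other 3. Fst, which blocks activin, measured 31.9 and 172 CPM (5.4-fold, 4.86 to 6.01). Fibroblast subset genes gave 4 of 21 higher and none lower (0.08). Crabp1, a retinoic-acid binding protein, measured 144, 4.42, 73.2 and 83.7 CPM, so that the imiquimod control was low and the ratio was 18.9 (14.4 to 25.4). Complement genes gave 0 of 15 higher and 3 lower (−0.40), and the 3 were C1qa, C1qb and C1qc, which macrophages make. C1qc was 4.75-fold lower (3.65 to 6.21), beside a sum of macrophage markers, 10 of 10 detected, of 142 CPM in control and 93.5 CPM in labelled null fibroblasts. Their part was not tested.

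Of the remaining fibroblast lists, Nrf2 targets gave 5 of 18 higher and 1 lower (median log2 0.44), hypoxia and glycolysis 5 of 23 and 1 (0.21), and immediate early genes 2 of 24 and none (0.44). Nqo1, a quinone reductase, was 3.32-fold higher, and Ier3 measured 164 and 690 CPM (4.22-fold, 4.03 to 4.42). Aryl hydrocarbon receptor targets gave 1 of 6 higher and 2 lower (−0.24), with Aldh3a1 3.07-fold lower and Cyp1b1 2.84-fold lower.

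The downward ranking of fibroblasts was headed by the major urinary protein genes Mup17, Mup16 and Mup9, whose products carry pheromones in urine. Mup17 measured 89, 110, 34.6 and 0 CPM over the 4 libraries, at least 1030-fold lower under imiquimod. These copies share sequence, and their single values are uncertain. Mup17 UMIs lay in 0.734% of imiquimod control fibroblasts, and with called doublets left out its log2 ratio was −6.32 in place of −12.59. Gpr1, a chemerin receptor, measured 14.5, 114, 8.93 and 5.34 CPM (21.3-fold lower, 18 to 25.4), and Arl4d, a small GTPase, was 21-fold lower (17.9 to 24.9). For both genes the imiquimod control was the high library.

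Interferon-stimulated genes, which imiquimod raises through type I interferon, gave few counts of higher genes. In epithelial cells 0 of 39 were higher and 3 lower (median log2 −0.29). In fibroblasts 1 of 40 was higher and 4 lower (−0.24), and in Ptprc cells 0 of 27 were higher and 3 lower (−0.32). The medians over all genes were 0.03, −0.15 and 0.14. Shares over all genes were 10.5%, 4.72% and 7.62% higher and 9.19%, 10.6% and 4.19% lower. The lower counts of epithelial cells and fibroblasts lay near these shares. Gbp2, an interferon-induced GTPase, measured 4.14, 33.2, 2.68 and 15.5 CPM in epithelial cells (2.14-fold lower, 1.88 to 2.43) and was 2.13-fold lower in fibroblasts and 2.22-fold lower in Ptprc cells. With at least 2 Ptprc UMIs required, its log2 ratio in Ptprc cells was 0.0049. Ifit1, which binds foreign RNA, measured 0.376, 59.1, 0.596 and 28.9 CPM in epithelial cells (2.04-fold lower, 1.86 to 2.24). Ifit3b was 2.93-fold lower in fibroblasts. Isg15, a ubiquitin-like modifier, went the other way, at 23.3, 175, 24.4 and 410 CPM in fibroblasts (2.35-fold higher, 2.24 to 2.46) and 137 and 251 CPM in imiquimod epithelial cells (1.83-fold, 1.75 to 1.92). None of the 16, 16 and 15 genes of MHC class I presentation passed 2-fold in epithelial cells, fibroblasts or Ptprc cells (median log2 0.28, 0.21 and 0.27). Class I genes that did not pass included H2-Q4 at 1.97-fold lower and Psmb10 at 1.82-fold higher in epithelial cells.

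The promoters of these genes are shown because genes with the same interferon element differed in direction. In RefSeq promoters of GRCm38.p6, the 250 bases before each start site were searched on both strands for the interferon-stimulated response element, read as GAAA, any 2 bases and GAAA. It occurred in 58.6% of the 29 interferon-stimulated genes compared in epithelial cells that have a promoter there, against 3.23% of the 8916 compared genes with a promoter and 3.46% of all 27025 promoters. The windows below run 5′ to 3′ on the gene's strand, with the element in capitals.
Gbp2, chr3:142620594-142620623, plus strand, lower in the library labelled null: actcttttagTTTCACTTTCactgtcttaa
Ifit1, chr19:34640775-34640804, plus strand, lower in epithelial cells: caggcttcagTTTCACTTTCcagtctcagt
Isg15, chr4:156200865-156200894, minus strand, higher in fibroblasts: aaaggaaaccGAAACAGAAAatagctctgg
Gbp2 and Ifit1 hold the same run of letters. In the window shown, Isg15 holds the element on the other strand, with other bases between its ends. Only 1 match per gene is shown. Isg15 held further overlapping matches, and Ifit1 held a second match with other bases between its ends. Whether the letters relate to direction was not tested. The core CCGTTA of OVO-family binding sites was searched for the same way. It occurred in 3.98% of 930 promoters of genes higher in epithelial cells, 3.97% of 780 of genes lower and 3.63% of the 8916 compared, and in 2.52% of all promoters. In fibroblasts the shares were 1.51% of 398 higher, 3.53% of 879 lower and 3.62% of 8895 compared. The epithelial shares lay near the background. In fibroblasts the share was below it for higher genes, on 6 promoters, and near it for lower genes. Single matches were then sought in the ranked genes of each compartment, Ovol1 and several gene lists. Matches on 1 chromosome, which holds none of the genes shown, were left out of this listing. Ccl27a and Tnc held the core, as did 3.63% and 3.62% of the promoters compared in epithelial cells and fibroblasts.
Ccl27a, chr4:41774159-41774184, minus strand: atgtaattgtTAACGGtccgtttccg
Tnc, chr4:64047105-64047130, minus strand: tgcaaatggtCCGTTAgctggcggcg
The capitals mark the core. The RefSeq start of Ccl27a lies inside the longer gene of GENCODE M21, so this window is within that gene. A match describes letters only. The AP-1 letters TGANTCA occurred in 7.74% of promoters of genes higher and 7.82% of genes lower in epithelial cells, against 5.79% of those compared, and the sterol letters TCACNCCAC in 1 of 12 cholesterol synthesis promoters against 1.28%.

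Ptprc cells of the library labelled null had higher levels of interleukin 17 and Langerhans cell genes and lower levels of macrophage lectins and lysozyme. Of 5078 genes compared, 387 (7.62%) were at least 2-fold higher and 213 (4.19%) at least 2-fold lower, with a median log2 ratio of 0.14. Setting the median gene to no difference gave 291 and 277, so that 51.2% of the counted genes were higher in place of 64.5%. In untreated skin 1.26% were higher and 4.15% lower. The imiquimod shares of 7.62% and 4.19% are the background for the Ptprc list counts below. Of the control Ptprc cells 30.4% had a Cd3 gene UMI and no UMI of Lyz2, Csf1r or Cd207, and 44.4% of those labelled null did. Cells with a UMI of Lyz2, Csf1r, Cd207 or H2-Aa and no Cd3 UMI were 46.4% and 37.8%. These are 38 and 100 Cd3 cells and 58 and 85 cells of the other kind. A single Ptprc UMI placed 69.6% and 68.9% of the Ptprc cells. Epithelial markers summed to 20870 and 17451 CPM in Ptprc cells and fibroblast markers to 8192 and 8407 CPM, all of them detected, and their part in the ratios was not tested.

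Type 17 lymphocyte genes were higher in 7 of 18 cases and lower in 1 (median log2 0.74). Il17f measured 116, 72.2, 93.8 and 384 CPM (5.32-fold, 3.98 to 7.26), and Il17a measured 279, 545, 283 and 1117 CPM (2.05-fold). Both cytokines act on keratinocytes. Il17a was higher in each imiquimod library than in the untreated library of its line, and for Il17f only the library labelled null was high. An Il17a UMI was found in 9.6% and 38.7% of Ptprc cells (8% and 28.4% after thinning) and in 1.37% and 11.04% of epithelial cells, which should lack it. Areg, a growth factor of tissue repair, measured 22, 79.5, 23.2 and 317 CPM (3.99-fold, 3.02 to 5.37). Cd163l1, a receptor of gamma-delta T cells, was 3.02-fold higher (1.61 to 6.26). With at least 2 Ptprc UMIs required, the log2 ratio of Areg was 7.38 in place of 1.98, and that of Cd163l1 2.95 in place of 1.54. Within Cd3 cells Il17f was 4.14-fold higher (3.07 to 5.7). When only cells of at least 3039 UMIs were compared, its log2 ratio over all Ptprc cells was 4.19 in place of 2.40. Pan T and NK genes were higher in 7 of 17 cases and none lower (0.51), with Cd3e at 255, 105, 334 and 288 CPM (2.75-fold, 2.14 to 3.57). The imiquimod control was thus the lowest library for Cd3e. T or NK markers, 7 of 7 detected, summed to 1221 and 2348 CPM in Ptprc cells.

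Langerhans and dendritic cell genes were higher in 10 of 19 cases and lower in 2 (median log2 1.08). Cd207 encodes langerin, the lectin of Langerhans cells. Cd207 measured 170, 51.6, 317 and 441 CPM (8.55-fold, 6.1 to 12.4), lowest in the imiquimod control. A Cd207 UMI was in 5.6% of control Ptprc cells (7 cells) and 26.7% of those labelled null (60 cells), and in 1.6% and 16.9% after thinning. Mfge8, which bridges apoptotic cells to phagocytes, measured 43, 79.5, 72.8 and 1148 CPM (14.4-fold, 11 to 19.3), and Ltc4s, leukotriene C4 synthase, 10.5, 13.3, 39.7 and 211 CPM (15.9-fold, 8.31 to 35.1). Both were highest in imiquimod skin labelled null, and with at least 2 Ptprc UMIs required their log2 ratios were 4.99 and 4.86 in place of 3.84 and 3.92. Mgl2, a lectin of dermal dendritic cells, measured 236, 517, 237 and 55.9 CPM (9.25-fold lower, 7.41 to 11.6). The 6 Langerhans markers, which include H2-Aa and Cd74 of the class II pathway, summed to 20690 and 20923 CPM. MHC class II genes gave 2 of 12 higher and 1 lower in Ptprc cells (0.09), 1 of 9 higher in epithelial cells (0.36) and 1 of 11 higher and 1 lower in fibroblasts (−0.67). H2-Eb1 measured 2165, 290, 69.5 and 138 CPM in Ptprc cells, and its high library was the untreated control. Cd86, a co-stimulatory ligand, was 2.64-fold higher in Ptprc cells (1.88 to 3.81).

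Resident macrophage genes were lower in 7 of 17 cases and higher in 2 (median log2 −0.53). With at least 2 Ptprc UMIs required, that median was 0.16, and the log2 ratio of its member Mrc1 was −1.42 in place of −2.38. Under the same requirement, Cd209a of the Langerhans and dendritic cell list had −3.10 in place of −4.01. Lyz2 of the monocyte list had −1.61 in place of −2.45. Cd209d, a macrophage lectin of the DC-SIGN family on chromosome 8 (3871824 to 3878555, minus strand), measured 419, 215, 324 and 9.14 CPM (23.5-fold lower, 14.2 to 41.5). Its copies Cd209a and Cd209e were 16.3-fold and 54.2-fold lower. Mrc1, the mannose receptor, was 5.25-fold lower (3.14 to 8.99), and Csf1r, the receptor for the macrophage growth factor, was 4.03-fold higher (2.65 to 6.4). Macrophage markers, 10 of 10 detected, summed to 2470 CPM in control and 1427 CPM in labelled null Ptprc cells. Monocyte and inflammatory macrophage genes gave 5 of 14 higher and 3 lower (0.10). Lyz2, lysozyme, measured 3341, 1033, 3974 and 188 CPM (5.49-fold lower, 4.82 to 6.26), and it was lower under imiquimod in both lines. Clec4n, dectin 2, measured 25 and 150 CPM (5.99-fold, 3.67 to 10.4). In cells with a myeloid gene and no Cd3 UMI, Lyz2 was 5.38-fold lower, Cd209d 21.3-fold lower and Mfge8 15.4-fold higher.

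Of the other Ptprc lists, other chemokines gave 6 of 19 higher and 6 lower (median log2 0.09), hypoxia and glycolysis 0 of 21 in either direction (0.33), immediate early genes 1 of 24 higher (0.13), and complement genes 0 of 12 higher and 2 lower (−0.50). Ccl20, the ligand of CCR6, measured 5.89 and 54.3 CPM (9.22-fold, 3.49 to 34.5), and Ccl6 was 10.6-fold lower (6.64 to 17.6). Of the neutrophil and mast cell list only S100a8 and S100a9 had enough UMIs, and both were higher (6.56). S100a8 measured 0, 45.7, 271 and 4997 CPM in Ptprc cells (109-fold, 77.1 to 161). The 271 CPM of untreated skin labelled null came from 246 UMIs held by 0.606% of its 165 Ptprc cells. The other 5 neutrophil markers summed to 8.84 and 16.7 CPM, with Retnlg and Ly6g at 0 in both imiquimod libraries, and their part was not tested. Krt6a was 24.3-fold higher in Ptprc cells, on 11 and 731 UMIs.

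**Figure D4:**
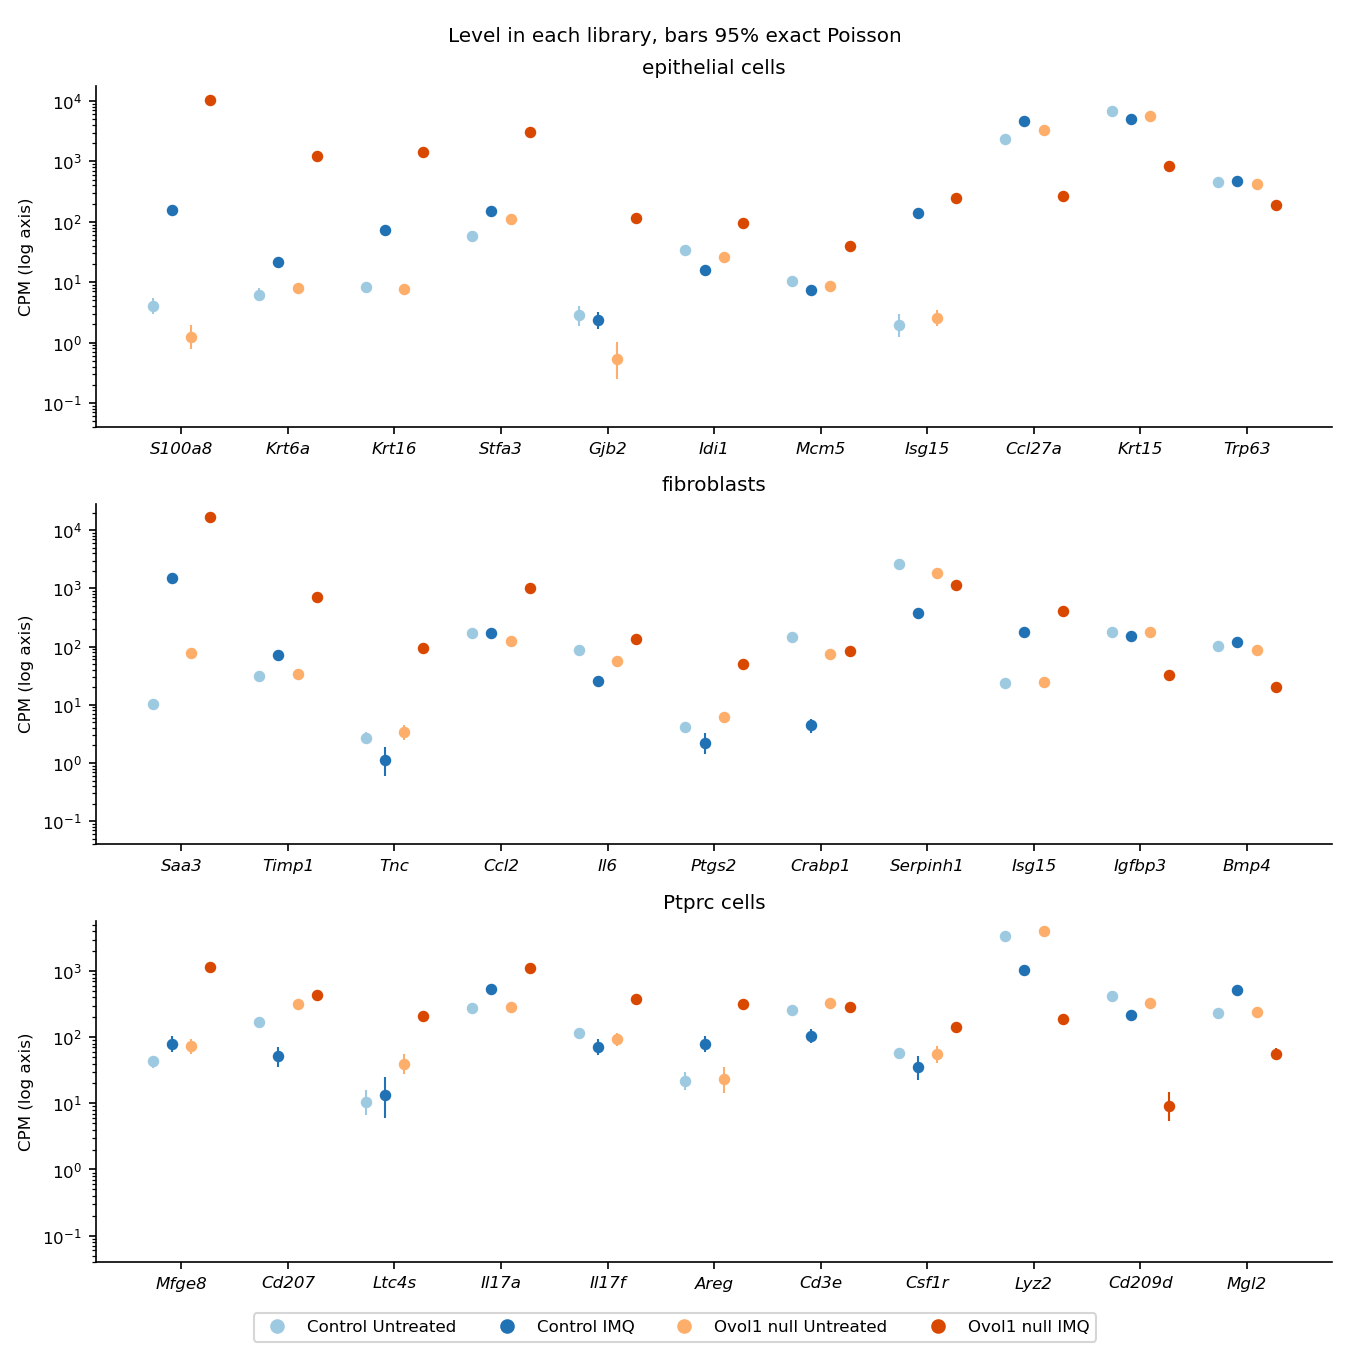
CPM in each of the 4 libraries (vertical log axis) for genes of each compartment, with bars for the 95% exact Poisson interval of the count; colours give the library. S100a8, Krt6a, Saa3 and Tnc are highest in imiquimod skin labelled Ovol1 null, and Ccl27a, Bmp4 and Cd209d are lowest there, while for Crabp1, Serpinh1 and Cd3e the imiquimod control is the lowest library.

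Part of these differences recurred in the sums of all 3 compartments. Of 4921 genes compared in all 3, 79 were at least 2-fold higher in each and 68 at least 2-fold lower in each. Among those higher were Timp1 (log2 3.14 in epithelial cells, 3.33 in fibroblasts and 2.75 in Ptprc cells), Sqle (2.49, 2.39 and 2.34) and Saa3 (3.38, 3.51 and 3.01). Among those lower were Ccl27a (−4.16, −3.76 and −3.97), Gata3 (−1.67, −2.78 and −1.87) and Krt77 (−2.80, −4.05 and −2.46), chosen here after their values were seen. For keratinocyte genes in the other compartments, the epithelial marker sums above stand beside these values. Leukocyte genes such as Il17a, Cd3g and Cd207 were also among the 79. Saa3 measured 44.0 and 459 CPM in imiquimod epithelial cells, beside 1504 and 17084 CPM in imiquimod fibroblasts. The part of transcripts from other cells in these shared ratios was not tested. Epithelial cells and fibroblasts had 10722 genes in common. Of these, 239 were higher in both, which is 239 of the 982 higher in epithelial cells and of the 416 higher in fibroblasts. Lower in both were 443, of 875 and 1031. Higher in epithelial cells and lower in fibroblasts were 17 genes, and 5 were the reverse. Rrm2, a subunit of ribonucleotide reductase, measured 10.3 and 41.2 CPM in imiquimod epithelial cells and 4.08 and 1.42 CPM in imiquimod fibroblasts. Slco2a1, the prostaglandin transporter, measured 41.7 and 8.57 CPM in epithelial cells and 5.44 and 13.2 CPM in fibroblasts.

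The ratios were nearer to 1 in untreated skin, whose libraries are not those of the imiquimod comparison. The median absolute log2 ratio was 0.46 under imiquimod and 0.15 untreated in epithelial cells, 0.40 and 0.17 in fibroblasts and 0.36 and 0.22 in Ptprc cells. Across genes the ratios of the untreated and imiquimod pairs had Pearson r of −0.01, −0.16 and 0.06, over 10813, 11454 and 4715 genes, as a description, since genes are not independent replicates. Of the genes compared in both pairs, 23 were higher in both in epithelial cells, of 888 higher under imiquimod and 135 higher untreated, and 12 were lower in both, of 991 and 61. In fibroblasts the counts were 21 of 465 and 241, and 19 of 1185 and 59. In Ptprc cells they were 12 of 281 and 55, and 15 of 195 and 143. The 12 include S100a8 and S100a9, whose UMIs lay in 0.606% of the 165 untreated Ptprc cells labelled null. Genes on these short lists, named after their values were seen, included Pla2g2e, a secreted phospholipase, at 16.8, 183, 75.8 and 706 CPM in fibroblasts, and Wnt16, a Wnt ligand, at 9.78, 8.37, 4.35 and 0.526 CPM in epithelial cells. The skeletal muscle genes Tnnc2 (90.2, 26.4, 6.94 and 6.23 CPM in fibroblasts) and Tnnt3 (42.6, 17.3, 6.66 and 6.59 CPM) were lower in both libraries labelled null. Skeletal muscle markers, 5 of 5 detected, summed to 89.0 and 49.9 CPM in imiquimod fibroblasts, and their part was not tested.

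**Figure D5:**
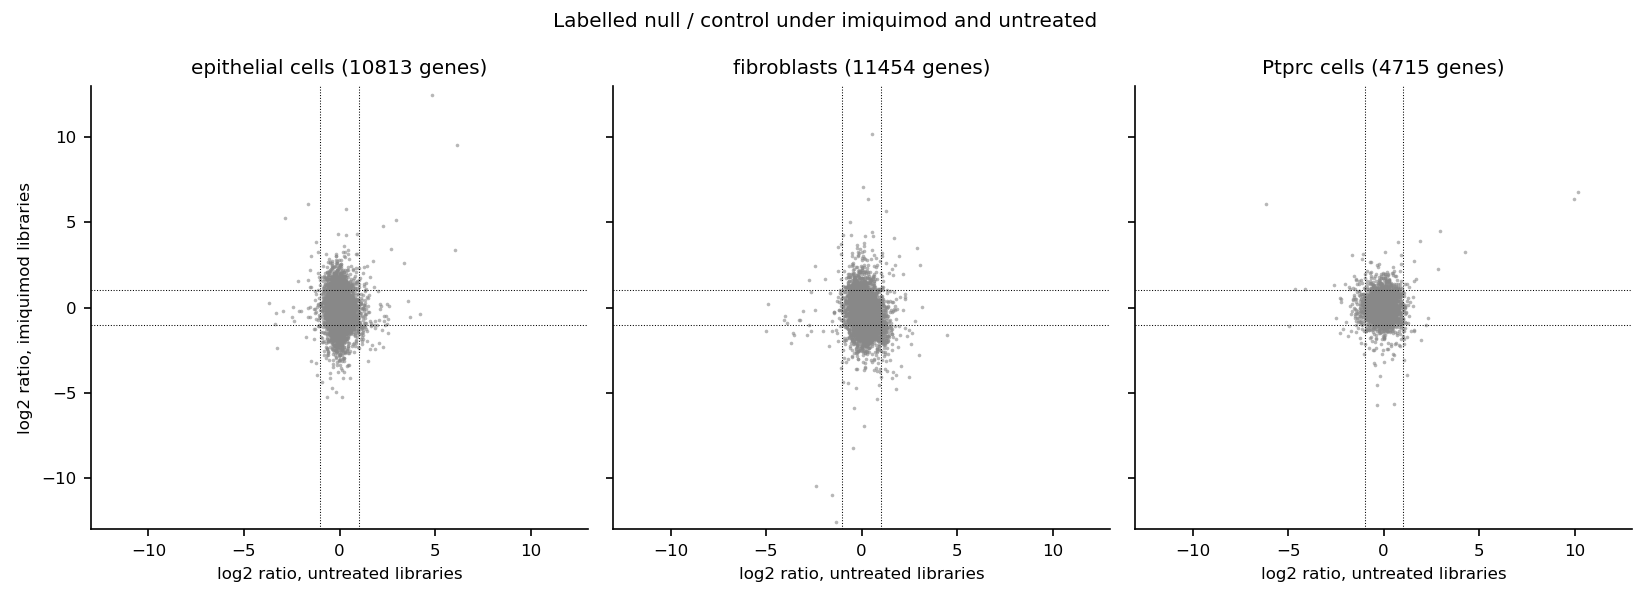
Log2 ratio of the library labelled Ovol1 null over the control library under imiquimod (vertical axis) against the same ratio in untreated skin (horizontal axis), 1 point per gene with at least 50 UMIs in each pair of libraries, in each compartment. Dotted lines mark 2-fold; the vertical spread exceeds the horizontal one, with Pearson r of −0.01, −0.16 and 0.06.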

How the data were processed

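The authors deposited 1 matrix of raw UMI counts per gene and cell, aggregated over 4 libraries. The submitters' processing notes name Cell Ranger 2.1.0 and the build mm10. Whether aggregation equalised depth, and the annotation release, are not given in the sources used here. Cell suffixes gave each cell's library, and no column of another sample was present (0). From the counts, compartment sums, CPM, ratios and exact conditional binomial intervals at 95% were computed with Python 3.11.15, numpy 2.4.6, pandas 2.3.3 and scipy 1.17.1. The interval covers counting error only. For log2 ratios 0.5 UMI was added to each side. A gene without UMIs in 1 library got a bound against 3 UMIs. Trimmed-mean scaling used edgeR 4.0.16 in R 4.3.3, and doublets were called with Scrublet in scanpy 1.11.5, which marked 1.53% of control and 1.90% of labelled null imiquimod cells. They were kept except in the alternative. The counting and interval code was tested on simulated data. Genes were named by a rule, and some outside it with their values known. Per compartment the rule took the 12 in each direction whose interval limit nearest to 1 was farthest from it. It also took up to 4 members of each list with the largest absolute log2 ratios, and Ovol1. Genes named outside it include Saa3 in fibroblasts, Il17a and Cd207 in Ptprc cells, and Stfa3 and Defb1 in epithelial cells. The compartments, the 38 lists of 789 genes and the rule were chosen with earlier results of these data known. Of the listed symbols 13 were not in the gene table of 27998. Positions come from GENCODE M21 on GRCm38 and promoter sequences from RefSeq on GRCm38.p6. Alternatives were other scalings, means of per-cell CPM, UMI minimums, folds, cell filters, stricter compartments, thinning and subsets.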

Additional observations from a re-analysis of the deposited data

Results flagged for a closer look

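The named genes below had a ratio of the library labelled Ovol1 null over the control library past 2-fold in 1 direction under imiquimod and past 2-fold in the other direction in untreated skin, with both intervals clear of 1. Each group is a single library, so every library of a pair moved one way, and the difference was not tested. The value given is the imiquimod log2 ratio minus the untreated log2 ratio. In epithelial cells it was 7.74 for S100a8 (6.07 and −1.67), whose untreated levels were 4.04 and 1.25 CPM. It was 4.40 for Gjb6 (3.27 and −1.13), the gene of connexin 30, with 3.67, 1.62, 1.67 and 15.9 CPM in untreated control, imiquimod control, untreated labelled null and imiquimod labelled null cells. For Cyp1a1, a target of the aryl hydrocarbon receptor, it was 2.70 (1.20 and −1.50), at 4.42, 2.07, 1.55 and 4.77 CPM in the same order. Under the stricter epithelial rule its imiquimod log2 ratio was −0.013, no longer past 2-fold. In fibroblasts it was 4.83 for Ptx3 (3.76 and −1.07) and −6.56 for Cfap57 (−4.78 and 1.78), which measured 3.08, 17.1, 10.6 and 0.606 CPM. In Ptprc cells it was 12.25 for the chemokine Ccl1 (6.08 and −6.18), at 119, 0, 1.10 and 49.5 CPM. There it was −5.20 for Ccl27a (−3.97 and 1.23) and −4.15 for Krt15 (−3.10 and 1.05), both genes of keratinocytes. The summed epithelial markers in Ptprc cells, Krt15 itself among them, were 6667, 20870, 9940 and 17451 CPM over the same libraries. Members of the sum differed in direction under imiquimod. Krt14 measured 1999 CPM in control and 4025 CPM in labelled null Ptprc cells, and Krt10 2195 and 637 CPM. The part of these markers in the values was not tested.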

How the results depend on the processing

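No paired analysis was possible because each group had 1 library, and for the same reason no replicate could be left out. Under the alternatives, 49 counts of genes stayed within 1.5 times and 31 moved. Among list medians 678 stayed, 41 moved and 2 reversed, and among named genes 2105 stayed, 562 moved and 21 reversed. Epithelial genes at least 2-fold lower were 648 with 200 UMIs required per gene, and higher ones were 651 in Krt1/Krt10-leading cells. Counted at 1.5-fold they were 2689 higher and 2287 lower, at 3-fold 475 and 357, and after thinning to 1000 UMIs 643 and 479. In fibroblasts 878 were higher with edgeR scaling, 362 higher and 603 lower with 200 UMIs required, 1330 and 2783 at 1.5-fold, 237 and 435 at 3-fold, and 560 lower after thinning. In Ptprc cells the counts were 849 and 509 with 20 UMIs required, 97 and 60 with 200, 1032 and 527 at 1.5-fold, 135 and 62 at 3-fold, and 212 and 106 with 2 Ptprc UMIs required. They were 67 and 48 after thinning, 196 and 74 in Cd3 cells alone, and 133 lower in cells with myeloid genes. The epithelial share of kept cells in the control was 48.1% with at most 5% mitochondrial counts and 54.2% above the common UMI minimum, and under the stricter rule it was 43.8% in the control and 29.4% in the library labelled null. The Ptprc share of kept cells was 0.670% and 1.23% under the stricter rule and 0.829% and 0.987% after thinning. Log2 ratios that reversed in epithelial cells with called doublets left out were Hba-a1 (−1.30) and Hba-a2 (−0.89), with the haemoglobin and sex-linked median at −1.30. Under the stricter rule Cyp1a1 (−0.013) and Ccl6 (−0.19) reversed. In Krt1/Krt10-leading cells Hba-a1 (−1.66), Hba-a2 (−0.85), the haemoglobin and sex-linked median (−1.33), Ccl6 (−2.94), Btg2 (0.17), Plk1 (−0.50), Uhrf1 (−0.057), Cyp1b1 (0.23) and Ifit1 (0.090) reversed. In Ptprc cells Gbp2 (0.0049), Ccl21a (−4.65), Cxcl1 (−0.28) and Cbr2 (0.029) reversed under the stricter rule, Ccl20 (−1.00), Ube2c (2.45), Cxcl2 (−0.17) and Ltc4s (−5.07) in Cd3 cells, and Cd7 (−2.85) in cells with myeloid genes. The cause was not tested. Fewer genes had enough UMIs under the stricter minimum and after thinning. The stricter compartment rule moved the ratio by over 1.5 times for 37 of 80 named genes in Ptprc cells, 21 of 110 in epithelial cells and 18 of 101 in fibroblasts. Averaging CPM over cells, in place of summing UMIs, moved 27 of 110 in epithelial cells, 7 of 81 in Ptprc cells and 7 of 101 in fibroblasts. Some ratios came nearer to no difference and others went farther. In epithelial cells the log2 ratio of Ccl27a was then −3.41 in place of −4.16, and that of Areg 3.52 in place of 2.25.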
